A study of Mus musculus with 12 samples.

Results

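Retinal ganglion cells are the output neurons of the retina, and their axons form the optic nerve. In the developing retina the transcription factor Atoh7 gives progenitors the competence to make these cells, and Pou4f2, Isl1 and Pou4f1 then act in the young neurons to turn on and maintain their genes. Rbpms, Slc17a6, Sncg, Nefl and Thy1 are expressed in the mature cells and are used to recognise them. DNA at such genes can carry 5-methylcytosine (5mC) at CpG sites, and the TET enzymes oxidise 5mC to 5-hydroxymethylcytosine (5hmC), which is abundant in neurons and is an early step of active demethylation.

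The 9 ganglion cell genes Rbpms, Pou4f1, Pou4f2, Isl1, Sncg, Nefl, Thy1, Slc17a6 and Atoh7 were examined in DNA of whole retinas. They were chosen by name out of 21911 protein-coding genes of the GENCODE M21 annotation, and the locus of each was its mm10 gene with 5 kb on each side. Regions of differential methylation were taken from both deposited lists wherever they overlapped a locus by at least 1 base. This gave 177 regions of 786742 in all, of which 53 came from whole-genome bisulfite sequencing (WGBS), which reads 5mC and 5hmC together, and 124 from bACE-seq, which reads 5hmC alone.

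Retinas came from C57BL/6J mice at postnatal day 21. In the Tet tcKO group all 3 TET genes (Tet1, Tet2 and Tet3) carried floxed exons and were deleted in retinal progenitors by the Chx10-Cre-GFP transgene, a mosaic driver that the study bred to 2 functional Cre copies to limit its mosaicism. The Cre- controls were bred separately from Cre-negative animals, and the labels call them wild type without naming their Tet alleles. Of the 12 libraries, each assay used 3 from Cre- and 3 from Tet tcKO retinas, and each DNA sample was pooled from the retinas of 2 animals. According to the paper both assays used the DNA matched to its RNA samples. The 12 libraries are therefore not 12 separate pools of animals.

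The lists give 1 mean level per group and region, so the 3 libraries of a group could not be seen apart. Replicate spread, coverage and read depth were therefore unknown here, no interval or test could be computed for any level, and every difference below is a description of regions that the authors' caller had already selected. A locus without a region is not shown to be unchanged. The lists hold no expression, so neither the tissue label nor the Tet deletion could be checked with them. Ganglion cells are a small part of the retina, so each level is a mean over all retinal cells. In such a mean, fewer cells of a type and another level per cell cannot be told apart. By staining, the paper reports no significant difference in ganglion cell number between genotypes. It also reports fewer cells with rod markers and more with cone markers in Tet tcKO retinas.

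All 53 WGBS regions at the ganglion cell loci were higher in Tet tcKO than in Cre-, and all 124 bACE-seq regions were lower. The same direction held for 98.6% of the 193836 WGBS regions and for 100.0% of the 592906 bACE-seq regions of the whole lists, so it was not particular to these genes. Over the CpGs of their regions, the combined 5mC and 5hmC level was 55.3% in Cre- retinas and 70.1% in Tet tcKO retinas, a difference of 14.7 percentage points. The 5hmC level was 13.3% in Cre- retinas and 3.25% in Tet tcKO retinas, so that 24.4% of the control level was kept. Median WGBS levels per region were 61.5% in Cre- and 74.6% in Tet tcKO, beside 64.3% and 82.2% over the whole list. Median 5hmC levels per region were 12.8% and 2.94%, beside 13.9% and 3.08% over the whole list. The paper reports that a small share of unmodified cytosines escaped conversion in bACE-seq, comparable in size to the Tet tcKO levels here. No correction for it was made here, so low 5hmC levels and the shares kept may in part be unconverted cytosine. Rbpms, the longest of the genes, supplied 40 of the 53 and 88 of the 124 regions. Without it the Cre- level seen by WGBS was 42.0% and the Tet tcKO level 58.6%, and for 5hmC they were 13.5% and 2.94%.

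The loci differed widely among themselves. A WGBS region higher in Tet tcKO was present at 8 of the 9 loci, beside 76.8% of all protein-coding loci, and a bACE-seq region lower in Tet tcKO at 6 of the 9, beside 88.3%. Pou4f1 had neither, and Pou4f2 and Isl1 had only the WGBS gain. The reverse directions, a WGBS loss (4.91% of all loci) or a 5hmC gain (0.402%), were listed at 0 of the 9. Short loci more often lacked a bACE-seq region. Of the loci no longer than that of Isl1, 7 members among them, 23.3% had none, beside 11.7% of all loci.

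The stretches of DNA below come from 5 WGBS gains outside Rbpms, in regions whose Cre- level ran from 2.94% at Isl1 to 64.6% over the whole start region of Sncg. They are printed 5′ to 3′ on the strand of the gene, from GRCm38 (mm10), with each CpG in capitals. The first is the whole region upstream of Isl1 (chr13:116309972-116310057, minus strand), the second the region farthest upstream of Pou4f2 (chr8:78440736-78440833, minus strand), and the third the part of the Sncg start region that lies upstream of the gene (chr14:34374790-34374993, minus strand). The fourth is 300 bases of the region upstream of Atoh7, the window with the most CpGs (chr10:63097693-63097992, plus strand), and the last is the whole intronic region of Slc17a6 (chr7:51662676-51662964, plus strand). None of the stretches overlaps an annotated exon.
Isl1 upstream: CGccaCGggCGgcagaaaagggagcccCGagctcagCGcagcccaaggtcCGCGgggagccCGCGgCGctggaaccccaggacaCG
Pou4f2 upstream: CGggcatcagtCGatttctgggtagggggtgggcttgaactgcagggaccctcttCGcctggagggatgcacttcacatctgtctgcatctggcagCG
Sncg start: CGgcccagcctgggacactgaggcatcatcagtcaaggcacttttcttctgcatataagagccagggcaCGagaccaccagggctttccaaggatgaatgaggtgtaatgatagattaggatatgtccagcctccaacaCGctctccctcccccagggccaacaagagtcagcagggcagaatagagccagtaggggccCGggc
Atoh7 upstream: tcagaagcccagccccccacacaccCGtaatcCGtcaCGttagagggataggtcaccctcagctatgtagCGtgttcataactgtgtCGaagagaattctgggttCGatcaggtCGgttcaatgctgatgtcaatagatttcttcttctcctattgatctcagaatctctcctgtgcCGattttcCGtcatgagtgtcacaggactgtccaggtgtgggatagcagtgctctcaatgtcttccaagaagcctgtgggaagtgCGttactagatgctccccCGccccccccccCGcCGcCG
Slc17a6 intron: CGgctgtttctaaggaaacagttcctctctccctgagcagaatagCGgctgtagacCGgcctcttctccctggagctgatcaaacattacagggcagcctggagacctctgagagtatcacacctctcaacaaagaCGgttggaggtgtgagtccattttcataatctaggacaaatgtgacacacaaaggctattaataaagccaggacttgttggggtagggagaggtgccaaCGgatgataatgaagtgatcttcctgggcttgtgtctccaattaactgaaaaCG
The stretches differed in CpG density. The Isl1 stretch packs 11 CpGs into 86 bases, whereas the Slc17a6 stretch has 6 in 289, the Pou4f2 stretch 4 in 98, the Sncg stretch 4 in 204 and the Atoh7 stretch 14 in 300.

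Among the 4 transcription factors, Atoh7 had the broadest regions. Atoh7 encodes a basic helix-loop-helix protein that is needed in progenitors for ganglion cells to form, and its gene is at chr10:63099651-63101279 on the plus strand. Its largest WGBS region lay 2331 to 827 bases upstream of the start site and held 35 CpGs over 1505 bases. The mean level there was 43.4% in the controls against 68.9% in Tet tcKO, a gain of 25.5 points. A bACE-seq region of 3238 bases, from 3850 to 613 bases upstream, enclosed it. In this region 5hmC was 21.2% in the controls against 3.88% in Tet tcKO over 46 CpGs.

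The upstream region of Atoh7 was thus the part of its locus where the modification seen by WGBS differed most. In Cre-, its 5hmC level amounted to 48.9% of its WGBS level, the highest share among the WGBS regions outside Rbpms that overlapped a 5hmC region. The start site itself lay in a bACE-seq region, from 65 bases upstream to 309 bases downstream, where Cre- retinas had 5.73% 5hmC and Tet tcKO retinas 0.998%. A short WGBS region in the exon, from 18 to 200 bases downstream in a part that is not coding, had 12.1% in Cre- and 20.3% in Tet tcKO. In all, 3 WGBS regions covered 18.7% of the Atoh7 locus and 6 bACE-seq regions covered 60.2%, the largest shares of bases of the 9 genes. By CpGs the WGBS share was still the largest (17.4%), but the 5hmC share, 39.1%, was below those of Rbpms (51.8%) and Thy1 (51.1%). The upstream WGBS region also holds a short predicted transcript, Gm38063, so it is not private to Atoh7.

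Pou4f2, or Brn3b, is a POU-homeodomain factor required for most ganglion cells to differentiate and survive (chr8:78433010-78436645, minus strand). It had 3 WGBS regions and no bACE-seq region. The region with the largest area statistic lay 3093 to 2049 bases upstream, with 11.98% in Cre- and 27.5% in Tet tcKO over 13 CpGs. The printed stretch farther upstream had 27.1% in Cre- and 46.9% in Tet tcKO over its 4 CpGs. Inside the coding exon, 8 CpGs in 83 bases stood at 3.35% in Cre- and 5.99% in Tet tcKO. The upstream regions thus differed by 15.5 and 19.8 points and the coding exon by 2.63. The nearest 5hmC loss was 6059 bases from the gene, outside the locus, with 20.2% in Cre- and 4.57% in Tet tcKO.

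Isl1 encodes a LIM-homeodomain factor that works with Pou4f2 in ganglion cells and is also expressed in some bipolar and amacrine cells (chr13:116298281-116309689, minus strand). Its locus of 21409 bases held 1 region, the CpG-dense stretch printed above, 367 to 283 bases upstream of the start site. Its level was 2.94% in the controls against 4.50% in Tet tcKO, a difference of 1.56 points and the smallest WGBS difference at any of the 9 loci. No replicate spread is available to set beside so small a difference. The nearest 5hmC loss was 6893 bases beyond the end of the gene.

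Pou4f1, or Brn3a, is a related POU-homeodomain factor found in many mature ganglion cells (chr14:104461676-104467999, minus strand). No region of either list overlapped its locus. The nearest WGBS gain was 6504 bases beyond the end of the gene, with 41.3% in Cre- and 61.0% in Tet tcKO (chr14:104454968-104455172). The nearest 5hmC loss to the gene was 6358 bases beyond its end. The 5hmC loss nearest to its start site was 10553 bases upstream, with 11.5% in Cre- and 2.36% in Tet tcKO (chr14:104478552-104479150). With 10 kb on each side, all 9 genes had a region of both kinds.

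**Figure D1:**
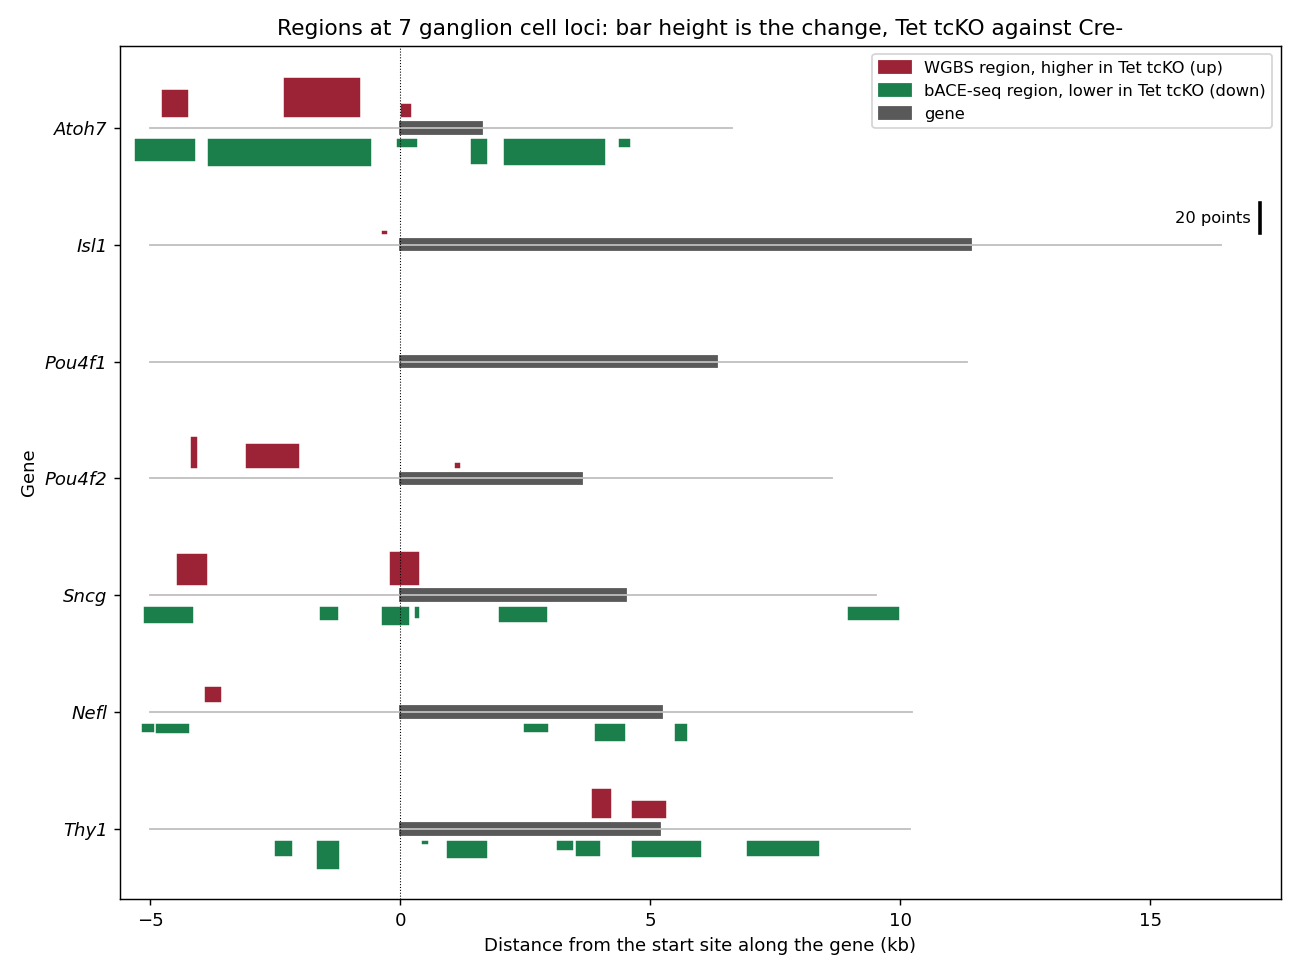
Position of the regions at 7 of the ganglion cell loci. The horizontal axis is the distance from the start site along the gene in kb, grey bars are genes and thin lines their loci, red bars above are WGBS regions higher in Tet tcKO and green bars below are bACE-seq regions lower in Tet tcKO, with the bar height giving the change in percentage points on the scale shown. Atoh7 has broad bars upstream of its start site, with a WGBS gain of 25.5 points and a 5hmC region of 3238 bases, whereas Pou4f1 has none and Pou4f2 and Isl1 have no green bar.

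The 5 genes of mature ganglion cells all had regions of both kinds. Rbpms encodes an RNA-binding protein that is widely used as a marker of all ganglion cells (chr8:33782643-33929863, minus strand). Of its 40 WGBS regions, 38 lay wholly in introns, 1 touched a coding exon and 1 lay downstream. Their levels spanned 20.0% to 91.6% in Cre-, with a median of 64.5%, and 30.9% to 97.4% in Tet tcKO, with a median of 78.2%. The gains ran from 5.46 to 25.7 points. The smallest was in a region already at 90.6% in Cre-, and the largest in an intronic region at 34.9%.

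Within Rbpms the first WGBS region began 8870 bases downstream of the start site. From 5 kb upstream to 8 kb downstream of the start site no WGBS region was listed, although 7 bACE-seq regions were, with 9.44% 5hmC in Cre- and 1.79% in Tet tcKO. From 8 to 50 kb there were 13 WGBS regions, from 50 to 100 kb there were 7, and from 100 kb to the downstream flank there were 20. The limit of 8 kb was set just short of the first region with its place known, and 3 gaps of over 10 kb between WGBS regions, the longest of 11564 bases, lay within the gene. The bACE-seq regions numbered 5.2 to 6.43 per 10 kb in these stretches. The bACE-seq regions closest to the start site on either side, 646 to 524 bases upstream and 1037 to 1129 bases downstream, were low in 5hmC in both groups. The upstream one had 2.70% in Cre- and 0.606% in Tet tcKO, and the downstream one 2.63% and 0.377%.

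The Rbpms region with the largest WGBS area statistic was in an intron near the end of the gene (chr8:33798667-33801099), with 42.5% in Cre- and 61.7% in Tet tcKO over 47 CpGs. The largest of the bACE-seq list spanned a coding exon (chr8:33833834-33836031), with 17.3% and 4.83% over 50 CpGs. The biggest 5hmC loss of all 9 loci, 20.8 points, was in the non-coding part of an Rbpms exon 145896 to 146130 bases from the start site, from 24.0% to 3.21%. In 1 intronic stretch both lists gave exactly the same bounds (chr8:33786309-33786774). There WGBS gave 55.7% in Cre- and 73.9% in Tet tcKO, and bACE-seq gave 16.0% and 3.86%. An antisense gene, Gm26632, lies over part of Rbpms and shares 5 of its WGBS and 11 of its bACE-seq regions.

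Slc17a6 encodes the vesicular glutamate transporter VGLUT2, which loads the synaptic vesicles of ganglion cells (chr7:51622006-51671119, plus strand). Despite a locus of 59114 bases it held 1 WGBS region, the intronic stretch printed above, 40670 bases into the gene. It stood at 43.7% in the controls and at 67.9% in Tet tcKO, a gain of 24.2 points. Its 11 bACE-seq regions were 10.5% to 21.6% hydroxymethylated in Cre- and 0.994% to 4.96% in Tet tcKO. Of these 1 lay upstream, and the first inside the gene began 16522 bases from the start site. The one with the largest area statistic lay in an exon 47141 to 47355 bases from the start site, with 10.5% in Cre- and 2.32% in Tet tcKO. The deepest fall, from 21.6% to 1.77%, was in an intronic region 41370 to 42033 bases from the start site. Slc17a6 kept 18.0% of its 5hmC level, the lowest share of the 6 genes with bACE-seq regions. This share, like the others, may hold unconverted cytosine.

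**Figure D2:**
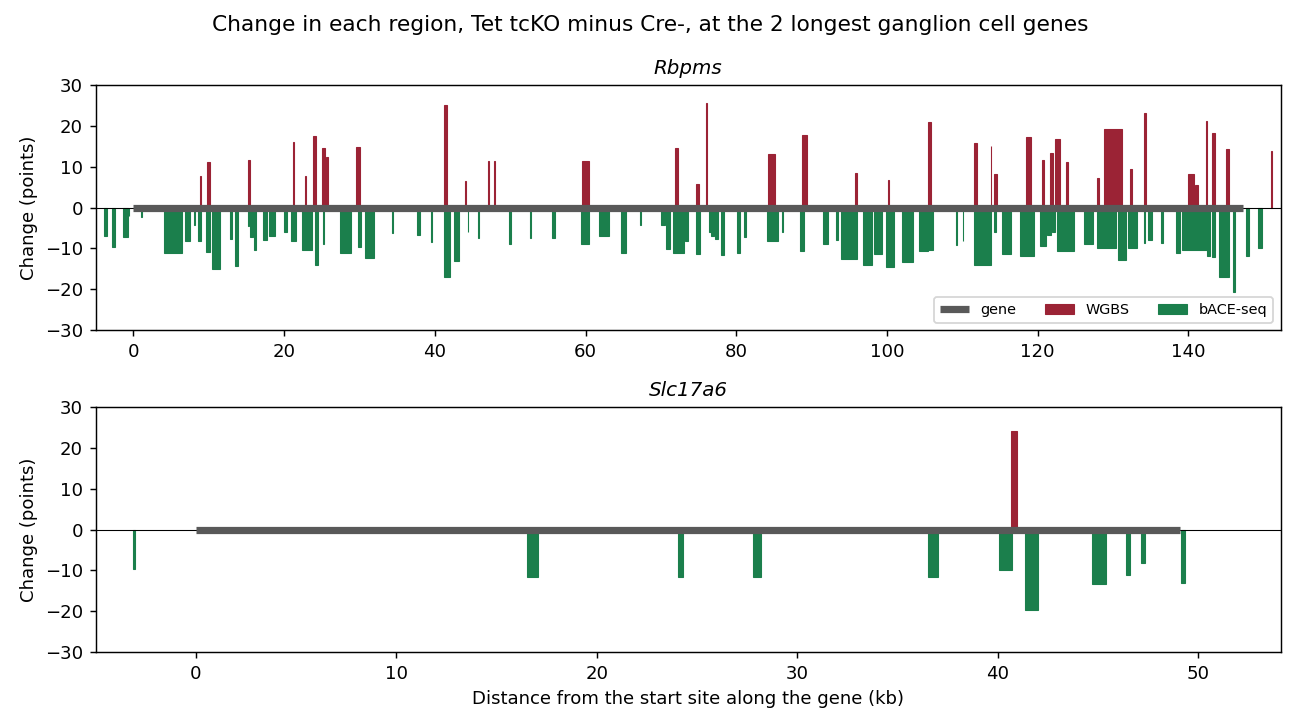
Regions at the 2 longest ganglion cell genes, Rbpms and Slc17a6. The horizontal axis is the distance from the start site in kb and the vertical axis the change in percentage points, Tet tcKO minus Cre-, with WGBS regions in red, bACE-seq regions in green and the gene as a grey bar. Red bars are absent over the first 8 kb of Rbpms and number 1 in Slc17a6. Green bars run along Rbpms, whereas in Slc17a6 1 lies upstream and the first inside the gene is 16522 bases from the start site.

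Sncg encodes gamma-synuclein, a small protein abundant in ganglion cell bodies and axons (chr14:34370274-34374789, minus strand). It was the only one of the 9 genes whose start site lay in a WGBS gain, beside 5.01% of all start sites. That region ran from 203 bases upstream to 360 bases downstream, through the first exon, with 64.6% in Cre- and 85.8% in Tet tcKO over 16 CpGs. A bACE-seq region from 368 bases upstream to 155 bases downstream also covered the start site, with 15.8% 5hmC in Cre- and 4.49% in Tet tcKO. A short one just beyond it, 289 to 360 bases downstream, kept 51.4% of its 5hmC, from 14.5% to 7.48%, the highest share kept in any bACE-seq region at the 9 loci. Start sites in a 5hmC loss were those of Sncg and Atoh7, 2 of 9, beside 12.2% of all start sites.

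The other WGBS region of Sncg, 4465 to 3896 bases upstream, had 47.0% in Cre- and 67.1% in Tet tcKO. It lies within the neighbouring gene Mmrn2, which also holds 2 of the 6 bACE-seq regions of the locus. The bACE-seq region with the largest area statistic was downstream of Sncg, with 10.1% in Cre- and 2.25% in Tet tcKO.

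Thy1 encodes a surface glycoprotein of ganglion cells and of many other neurons (chr9:44043384-44048579, plus strand). Its 2 WGBS regions were both in the second part of the gene. The one with the largest area statistic, 3839 to 4188 bases from the start site and partly coding, had 55.1% in Cre- and 74.6% in Tet tcKO. The other, 4634 to 5290 bases from it across the end of the gene, had 76.6% and 87.6%. A bACE-seq region that began at the same base and ran to 5990 had the largest area statistic of the 8 at this locus, with 12.3% in Cre- and 2.35% in Tet tcKO. The bACE-seq regions nearest to the start of Thy1 on either side were unlike each other. One, 441 to 541 bases downstream, had 1.93% in Cre- and 0.191% in Tet tcKO, the lowest levels of the 124, whereas one 1661 to 1245 bases upstream had 19.5% and 1.34%.

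Nefl encodes the light chain of neurofilaments, the intermediate filaments of long axons (chr14:68083863-68089095, plus strand). It had 1 WGBS region, 3914 to 3614 bases upstream, with 78.0% in Cre- and 87.3% in Tet tcKO over 10 CpGs. Its 5 bACE-seq regions were lower in 5hmC than those of the other genes, at 8.95% in Cre- and 2.33% in Tet tcKO over their CpGs. The one with the largest area statistic, 4876 to 4243 bases upstream, had 8.40% and 2.67%. The 3 bACE-seq regions in the gene and just downstream also lie within the annotated model of its neighbour Nefm, a neurofilament gene on the other strand, so they cannot be assigned to Nefl alone.

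**Figure D3:**
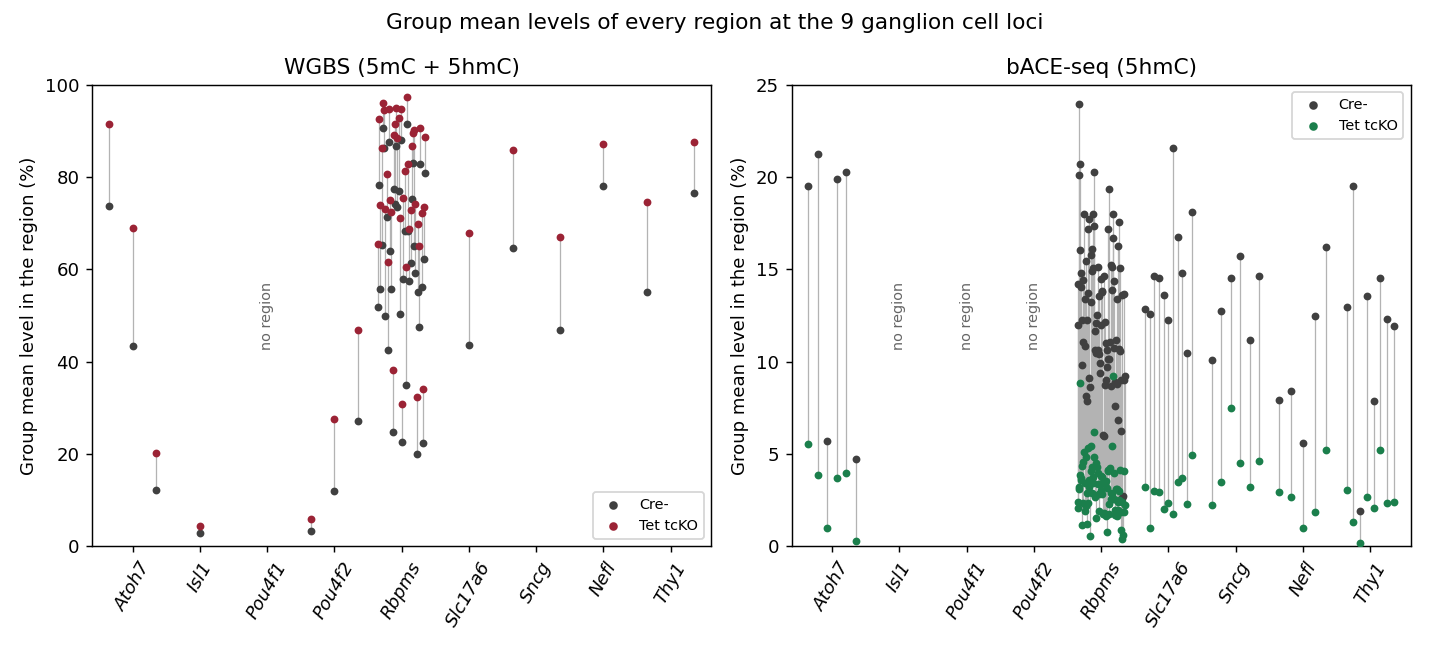
Group mean levels of all 53 WGBS and 124 bACE-seq regions at the ganglion cell loci. Each vertical line is a region and joins its Cre- mean (dark grey) to its Tet tcKO mean (red for WGBS, green for bACE-seq), in percent, with genes on the horizontal axis and different vertical scales in the panels. WGBS means lie higher in Tet tcKO in each region, from 2.94% at Isl1 to 91.6% at Rbpms in Cre-, and 5hmC means in Tet tcKO lie at or below 9.20%.

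By position, the differences seen by WGBS were 17.9 points upstream, 14.3 in introns and 10.2 at coding exons, without a test between these positions. Without Rbpms, which had no upstream WGBS region, introns (24.2 points, 1 region of Slc17a6) came before upstream regions (17.9) and coding exons (11.5), so this order compares Rbpms with the other genes. The 7 upstream WGBS regions, at Atoh7, Isl1, Nefl, Pou4f2 and Sncg, had 38.6% in Cre- and 56.5% in Tet tcKO over 87 CpGs. The 39 that lay only in introns, all but 1 of them in Rbpms, had 59.4% and 73.7%. The 3 that touched coding exons had 53.7% and 63.9%, and the 2 in other exon parts, at Atoh7 and Thy1, had 47.6% and 57.3%. The single region over a start site, that of Sncg, differed by 21.2 points. With Rbpms included, the 5hmC losses differed less between positions. Over the 13 upstream bACE-seq regions 5hmC stood at 14.1% in Cre- and at 3.25% in Tet tcKO. The 84 intronic ones had 13.2% and 3.20%, and the 12 touching coding exons 14.1% and 3.97%. Without Rbpms the 5hmC changes were -12.6 points upstream, -12.1 in introns and -8.28 at coding exons. Pooled over the 2 regions at start sites, 5hmC was 9.74% in Cre- and 2.39% in Tet tcKO. These 2 were unlike, with 15.8% in Cre- at Sncg and 5.73% at Atoh7.

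Where a WGBS gain and a 5hmC loss overlapped, the levels could be read side by side. Of the 53 WGBS regions 42 overlapped a bACE-seq region, or 79.2%, beside 81.1% of all WGBS gains. Conversely 33.9% of the 124 bACE-seq regions overlapped a WGBS gain, beside 24.1% of the whole list, and without Rbpms it was 9 of 36. Outside Rbpms the overlap was 8 of 13, and the 5 regions without a partner were those of Pou4f2, Isl1 and Nefl. In the 42 overlaps WGBS gave 58.6% for Cre- and 74.0% for Tet tcKO, and bACE-seq 14.6% and 3.87%. The 5hmC level was 10.5% to 76.8% of the WGBS level in Cre-, with a median of 24.0%. In 32 of the 42 overlaps, and in each of the 8 outside Rbpms, the WGBS gain was larger in points than the 5hmC loss. This count was not made over all overlaps of the whole lists, so it is not shown to be particular to these genes. Each pair also entered through a called WGBS gain, which favours a large WGBS difference. WGBS counts both marks, so the WGBS level minus the 5hmC level lay further apart between the groups than the WGBS level did. The assays were called separately and the bounds of overlapping regions mostly differ, so these pairs compare means over unequal stretches.

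A WGBS gain of at least 20 points was seen in 9 of 53 regions, beside 27.9% of the whole list of gains, with 5 of 40 in Rbpms and 4 of 13 at the other loci, and a 5hmC loss of that size in 1 of 124, beside 6.01%. WGBS gains covered a median of 6.63% of the bases of the 9 loci and 3.36% of those of all loci, for which the middle 50% ran from 0.411% to 7.62%. Without Rbpms the median of the members was 4.30%, and by CpGs the 9 loci had 7.81% and all loci 6.18%. For 5hmC losses the medians were in the other order, 12.7% at the 9 loci and 27.7% over all, with the middle 50% from 9.19% to 44.5%, and by CpGs 15.4% and 37.2%. The 9 loci were short, with a median of 15233 bases beside 27433 over all. Over all loci no longer than that of Isl1, the medians were 1.87% in WGBS gains and 21.0% in 5hmC losses. The part of locus length in these contrasts was not tested. By the share in WGBS gains the order was Atoh7 (18.7%), Rbpms (10.5%), Pou4f2 (8.98%), Sncg (7.81%), Thy1 (6.63%), Nefl (1.98%), Slc17a6 (0.487%), Isl1 (0.397%) and Pou4f1 (0%). By the share in 5hmC losses it was Atoh7 (60.2%), Rbpms (40.1%), Thy1 (33.9%), Sncg (22.6%), Nefl (12.7%) and Slc17a6 (7.55%), with Isl1, Pou4f1 and Pou4f2 at 0%. Without replicate spread, no 2 neighbours in either order can be said to differ. The median WGBS share depends on the bounds of the locus, and was 2.28% over the genes without flanks and 1.09% with 2 kb on each side.

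**Figure D4:**
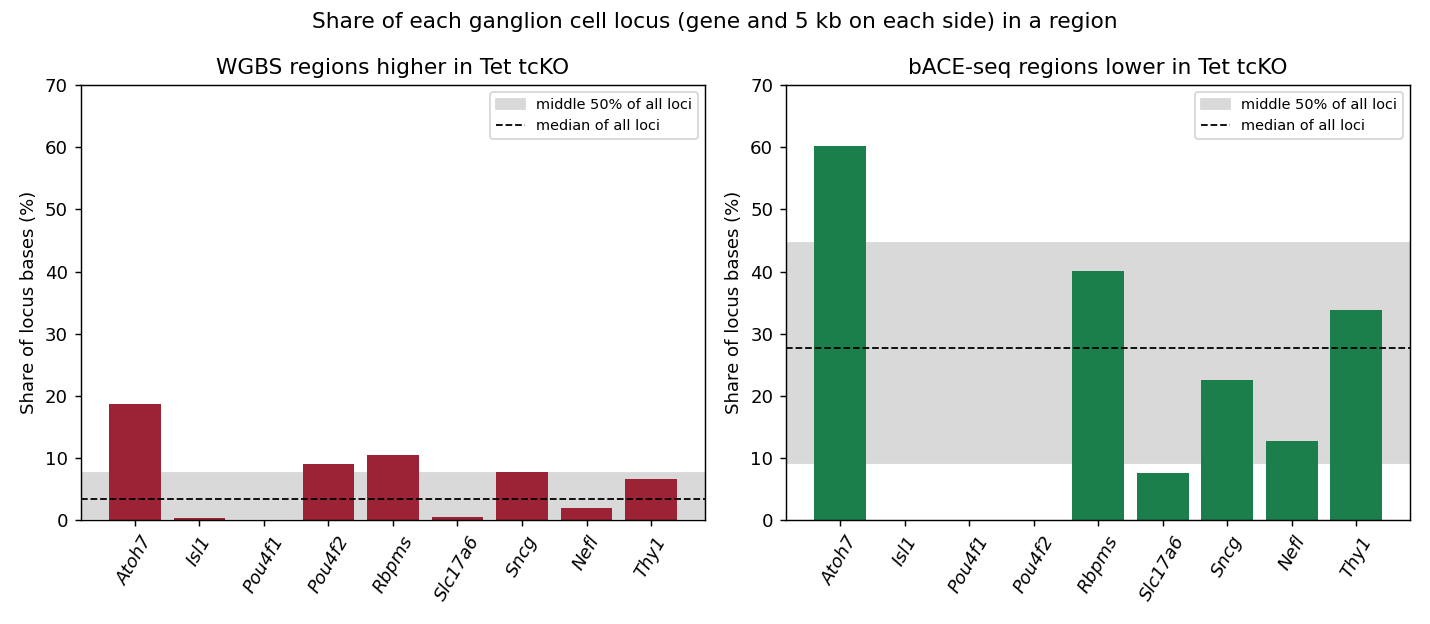
Share of the bases of each ganglion cell locus, the gene with 5 kb on each side, that lay in a WGBS region higher in Tet tcKO (left, red) or in a bACE-seq region lower in Tet tcKO (right, green), in percent. The dashed line is the median of all 21911 protein-coding loci and the grey band their middle 50%. Atoh7 stands above the band in both panels, and Isl1, Pou4f1 and Pou4f2 have no bar on the right.

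The 3 genes without a 5hmC loss, Pou4f1, Pou4f2 and Isl1, are all transcription factors with many CpGs at the start site. Within 500 bases on each side of the start site Pou4f1 has 125 CpGs, Rbpms 119, Pou4f2 and Isl1 77 each and Nefl 70, and when all loci were ranked by this number and cut into 4 equal groups, these 5 fell in the top group (69 to 172 CpGs). Slc17a6 has 41, Thy1 38, Atoh7 29 and Sncg 21, and the median of all loci is 41. Of the 5478 loci of the top group, 30 had no bACE-seq region, or 0.548%, and 3 of those 30 were the loci of Pou4f1, Pou4f2 and Isl1. Among loci of this group no longer than that of Isl1 it was 20 of 1227, or 1.63%, and over all loci 11.7%. Among all loci no longer than that of Isl1, whatever their CpGs, it was 1977 of 8488, or 23.3%. That set held 7 of the 9 members, with all 3 that lacked a bACE-seq region. Start sites of this group seldom lay in a 5hmC loss (1.24%), whereas those with 12 to 41 CpGs, the group of Atoh7, Sncg and Thy1, did so more often (31.9%). Within 2 kb of the start site 4 of the 9 genes had a WGBS gain (47.4% of all loci) and 4 had a 5hmC loss (78.2%).

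A wider list of ganglion cell genes and the genes of 3 other retinal cell types were set beside the 9. Over all loci 76.8% had a WGBS gain and 88.3% a 5hmC loss. Of 14 further transcription factors of ganglion cells, such as Isl2, Ebf3, Eomes and Tbr1, 11 had a WGBS gain and 13 a 5hmC loss. Their median shares of the locus were 4.93% and 16.4%. Of 14 axon and neuron genes, such as Nefm, Gap43 and Tubb3, all 14 had both, with medians of 3.40% and 27.4%. Their loci were long, with a median of 46638.5 bases beside 27433 over all loci, and the part of length was not tested. The largest WGBS shares of these 28 were at Isl2, a LIM-homeodomain factor (28.7%, from 13.996% in Cre- to 26.4% in Tet tcKO), and Ebf3, a helix-loop-helix factor (21.2%, from 60.6% to 75.2%). Eomes, Irx2 and Pou4f3 tied for the smallest at 0%. Pou4f3, the third Brn3 gene, also had no 5hmC loss, as did Pou4f1 and Pou4f2 among the members. In the wider list 2 WGBS regions were lower in Tet tcKO, at Eomes and Nefh, which are named here because of that value.

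Amacrine cell genes had median shares of 2.54% in WGBS gains and 16.9% in 5hmC losses, and horizontal cell genes 9.33% and 17.03%. The rod genes had the highest medians of these lists, 50.3% and 64.2%, although single genes of other lists lay among or above them, such as Prox1 (43.7% in WGBS gains) of horizontal cells and Slc6a9 (36.8% and 79.3%) of amacrine cells, named here for those values. Of the start sites, 6 of 6 in rod genes lay in a WGBS gain, beside 1 of 9 for the ganglion cell genes, 0 of 28 for the wider list and 5.01% of all start sites. For WGBS gains the 9 ganglion cell loci and the 6 rod loci did not overlap. The highest ganglion cell share, 18.7% at Atoh7 (percentile 94.8 of all loci), was just below the lowest rod share of 19.5%. In the wider ganglion cell list Isl2 (28.7%), Ebf3 (21.2%) and Jam2 (19.7%) lay above that rod share, so the lack of overlap depends on the list. For 5hmC losses the 9 members and the rod genes did overlap, because Atoh7 (60.2%) lay within the rod range of 58.8% to 70.5%. By CpGs the 9 members and the rod genes did not overlap in this list either. The rod genes had 63.1% to 81.4% and the highest member share was 51.8%, at Rbpms (percentile 73.7 of all loci). Opn4 (78.9%), Klf7 (68.8%), Tubb3 (68.3%) and Jam2 (66.4%) of the wider list lay within that rod range. Rods are the most numerous cells of the mouse retina and ganglion cells among the fewest, and the part of cell number in these shares was not tested.

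**Figure D5:**
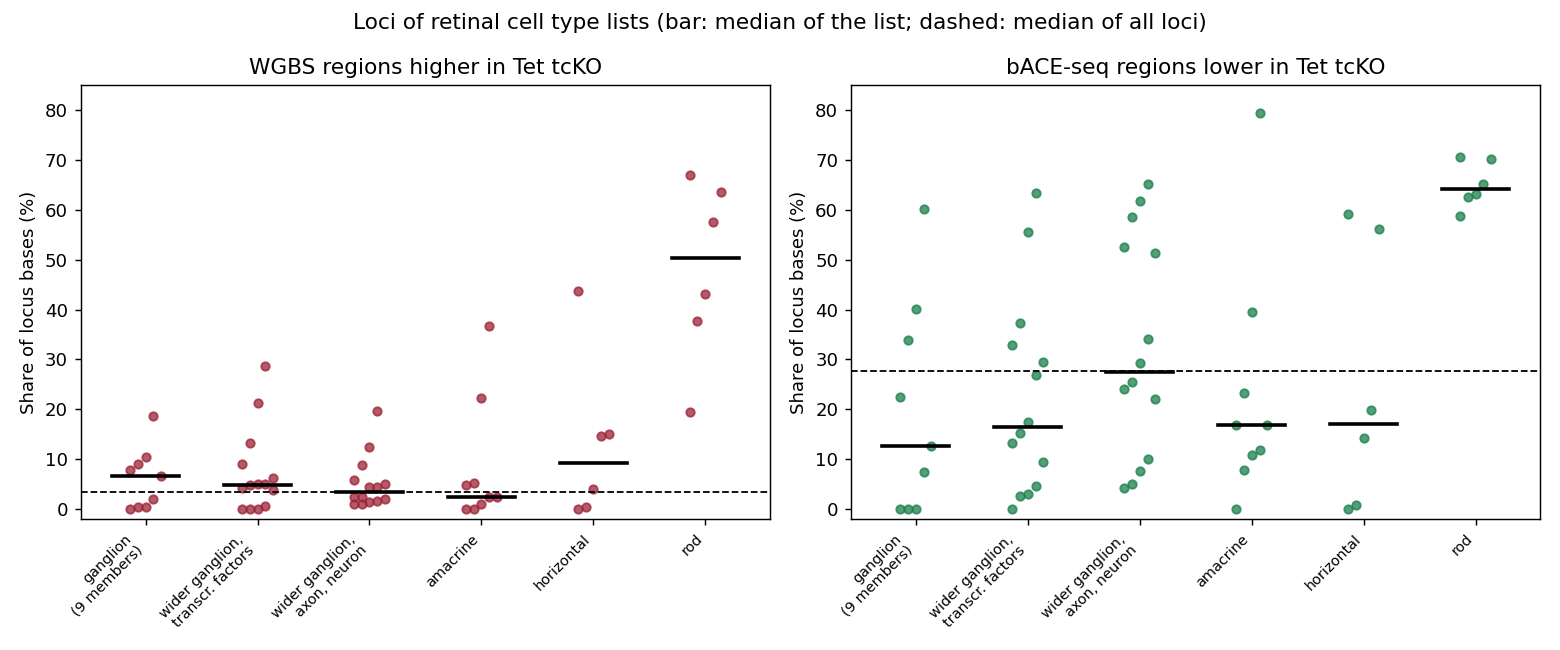
Share of locus bases in WGBS regions higher in Tet tcKO (left) and in bACE-seq regions lower in Tet tcKO (right), in percent, for the 9 ganglion cell genes, the wider ganglion cell lists and amacrine, horizontal and rod cell genes. Each point is a gene, the bar is the median of the list and the dashed line the median of all protein-coding loci. The ganglion cell medians of 6.63% and 12.7% lie far below the rod medians of 50.3% and 64.2%.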

How the data were processed

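Whole-retina DNA was profiled by WGBS and bACE-seq in 3 Cre- and 3 Tet tcKO libraries per assay, grouped by the sample labels. According to the methods of the study, adapters were removed with TrimGalore (0.4.4_dev) and alignment to mm10 used Bismark (0.18.2), where each mate of a bACE-seq pair was aligned on its own and read 1 in PBAT mode. The authors kept alignments of mapping quality 10 or more, discarded duplicates (Picard) and took CpG levels from MethylDackel (0.6.1). DSS (2.48.0) then smoothed the levels and called regions at a p threshold of 0.01, with a minimum of 3 CpGs and 50 bp and a merging distance of 50 bp.

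The deposited group means are a fraction of modified cytosines, printed here as percentages, and the authors' group order was read from the names of the lists. The deposited area statistic, a score, was used only to rank the regions of a locus and to check directions, and the deposited difference of the authors was replaced by Tet tcKO minus Cre-. Neither column is printed. Depth and coverage were not available, so precision is unknown. Levels over several regions are means weighted by CpGs. Shares of bases count each base of a locus once.

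Genes came from GENCODE M21 and sequences from GRCm38. A start site is the 5′ end of the gene model. A region was classed first by covering the start site, then by coding exon, other exon, intron or flank. Python (3.11.15), numpy (2.4.6) and pandas (2.3.3) were used, and the overlaps were checked on simulated loci. Named regions are, for each gene and list, that with the largest absolute area statistic and any over a start site; others were named for their values. Of the wider list the genes with the 2 largest and the smallest shares of WGBS gains were named. Other lists held 9 amacrine, 6 horizontal and 6 rod genes. Members, lists and tests were chosen with earlier results of these data known. Alternatives were at least 10 CpGs, a difference of at least 0.1 or 0.2, other flanks and start windows, weighting by bases, the sign of the area statistic, shares by CpGs, and leaving out Rbpms.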

Additional observations from a re-analysis of the deposited data

How the results depend on the processing

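Of 110 alternative values for 13 results, 78 stayed within 1.5 times (counts and shares) or 1 percentage point (levels) of the reported value and 32 moved. A reversal could not occur, because the levels were averaged over regions already chosen by their direction. The counts of 0 for the reverse directions could not rise under stricter filters or narrower flanks, so their staying the same there is no support. Requiring at least 10 CpGs left 21 WGBS and 67 bACE-seq regions, with median shares of the locus of 4.32% and 7.18%. A difference of at least 0.1 left 54 bACE-seq regions with a median share of 5.21%, a WGBS change of 16.9 points, a 5hmC change of -12.6 points and 22.7% of 5hmC kept. A difference of at least 0.2 left 9 WGBS regions at 4 loci and 1 bACE-seq region at 1 locus, with median shares of 0% and 0%, changes of 23.4 and -20.8 points and 13.4% kept. These filters leave fewer regions by construction. Without flanks the median shares were 2.28% and 19.7%, and the WGBS median was 1.09% with 2 kb and 4.00% with 10 kb on each side. Weighting by bases gave 23.1% of 5hmC kept. Shares by CpGs and leaving out Rbpms were chosen after seeing the data. By CpGs the order of the members in 5hmC losses began with Rbpms in place of Atoh7. Leaving out Rbpms left 13 WGBS and 36 bACE-seq regions, a WGBS median of 4.30%, a WGBS change of 16.7 points and 21.7% kept. Start sites with a WGBS gain numbered 3 within 1 kb and 4 within 2 kb, and those with a 5hmC loss 4 within either. No paired analysis was possible because the lists hold group means only, and for the same reason no library could be left out. Depth is unknown, so small differences such as that at Isl1 cannot be set against any error.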
